A study of Rattus norvegicus with 20 samples.

Results

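A set of 10 genes of microglial phagocytosis and of the lysosome were followed in the dentate gyrus of epileptic and control rats. They were listed by symbol as Cd68, Gpnmb, Ctss, Cd84, Pld4, Lgals3, Trem2, Tyrobp, Ctsd and Ctsz, and each was taken at the probe set that is annotated to that gene alone and has the highest mean over all arrays. Of the 10 genes, 9 were found, each with 1 such probe set, among 17245 genes represented in this way. No probe set was named for Ctsz, a lysosomal carboxypeptidase, and it was not analysed here. Of the 9 genes, 8 lay above background on all 20 arrays and were tested, whereas Lgals3 did not pass the filter on low values and is described by its measured values.

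The animals were adult male Sprague-Dawley rats, and the tissue was the left dentate gyrus, a subfield of the hippocampus. All of them carried electrodes implanted in the amygdala. In the stimulated groups, electrical stimulation of the amygdala was used to evoke status epilepticus (SE), a prolonged seizure that in this model is followed by spontaneous seizures and was interrupted with diazepam, and the rats were taken 7 d or 30 d later. The sham-operated groups had the surgery without stimulation and were taken at the same 2 times. Each of the 4 groups held 5 rats, with 1 array per rat, so that a stimulated rat differed from a sham-operated rat in stimulation, seizures and diazepam together. The dissected tissue holds all the cells of the region, and in such bulk RNA more or fewer cells of a type and more or less RNA per cell cannot be told apart.

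Microglia are the resident macrophages of the brain. They recognise dead cells and debris through surface receptors, engulf them into phagosomes and degrade the cargo after fusion with lysosomes. TREM2 is a lipid-sensing receptor of these cells that signals through the adaptor DAP12, the product of Tyrobp. CD84 is a self-binding receptor of the SLAM family. CD68 is a heavily glycosylated protein of the endosomal and lysosomal membrane of macrophages, and is widely used as a marker of phagocytic activity. Cathepsin S (Ctss) and cathepsin D (Ctsd) are proteases of the lysosome, the first typical of antigen-presenting cells and the second present in nearly all cells. PLD4 degrades single-stranded nucleic acids in the endolysosome. GPNMB is a transmembrane glycoprotein of phagocytes, and galectin-3 (Lgals3) binds galactose-containing sugars and gathers on damaged lysosomes.

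Values are log2 intensities, so a difference of 1 is a doubling, and levels are compared between groups within a gene and not between genes. The median of an array lay between 5.22 and 5.31 and the correlation between any 2 arrays between 0.9816 and 0.9978. Markers of the tissue were present on all 20 arrays, among them Prox1 of dentate granule cells, with group means between 9.47 and 9.59. Wfs1, a marker of neighbouring CA1 pyramidal neurons, was between 7.01 and 8.14 on 17 arrays and higher on 3, namely 8.81 in sham-operated rat 2 at 30 d, 8.64 in stimulated rat 4 at 30 d and 9.25 in stimulated rat 5 at 30 d. The results at 30 d are therefore also given without these 3 arrays.

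The promoters of 7 of the 9 genes were at hand (RefSeq, GRCr8, 250 bases before to 50 bases after the start of the gene), and the 4 that held at least 2 matches to the searched motifs are printed because the genes rose together. The letters searched on both strands were GAGGAA, the core bound by PU.1 and related ETS factors, CACGTG, the core of the lysosomal CLEAR element, TGANTCA for AP-1 and TTGCNNAA for a pair of C/EBP elements, where N is any base. Matches are in capitals, and no match overlapped another.
Cd68, chr10:54882392-54882691, minus strand: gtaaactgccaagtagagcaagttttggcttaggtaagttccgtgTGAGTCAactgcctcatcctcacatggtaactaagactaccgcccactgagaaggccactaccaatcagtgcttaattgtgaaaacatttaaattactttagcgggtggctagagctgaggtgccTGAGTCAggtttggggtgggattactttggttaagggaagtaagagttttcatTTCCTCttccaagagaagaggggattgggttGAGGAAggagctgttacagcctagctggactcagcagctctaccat
Gpnmb, chr4:79340878-79341177, plus strand: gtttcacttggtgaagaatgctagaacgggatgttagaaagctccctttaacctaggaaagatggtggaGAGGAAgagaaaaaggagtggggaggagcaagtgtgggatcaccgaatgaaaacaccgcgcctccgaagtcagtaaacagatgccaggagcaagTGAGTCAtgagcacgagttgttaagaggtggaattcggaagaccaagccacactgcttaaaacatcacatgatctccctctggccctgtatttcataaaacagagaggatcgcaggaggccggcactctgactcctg
Trem2, chr9:20151730-20152029, minus strand: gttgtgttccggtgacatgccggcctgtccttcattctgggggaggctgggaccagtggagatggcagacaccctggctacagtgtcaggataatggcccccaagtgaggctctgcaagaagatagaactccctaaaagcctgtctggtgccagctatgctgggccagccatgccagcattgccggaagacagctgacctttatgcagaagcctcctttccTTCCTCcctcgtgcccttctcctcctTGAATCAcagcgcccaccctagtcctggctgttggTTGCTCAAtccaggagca
Ctsd, chr1:206968772-206969071, minus strand: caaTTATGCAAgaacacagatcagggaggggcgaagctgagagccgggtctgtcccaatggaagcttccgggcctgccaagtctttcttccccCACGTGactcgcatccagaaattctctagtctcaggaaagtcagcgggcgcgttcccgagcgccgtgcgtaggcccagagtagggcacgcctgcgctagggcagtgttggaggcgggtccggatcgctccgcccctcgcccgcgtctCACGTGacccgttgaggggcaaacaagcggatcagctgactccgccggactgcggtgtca
GAGGAA or its reverse complement was in 4 of the 7 promoters (Cd68, Gpnmb, Trem2, Ctss) and in 27.6% of 33469 rat promoters of the same length. TGANTCA was in 3 of 7 (Cd68, Gpnmb, Trem2) and in 7.33% of all. CACGTG was in 2 of 7, with 2 copies at Ctsd and 1 at Cd84, and in 6.42% of all. TTGCNNAA was in 2 of 7 (Ctsd, Trem2) and in 10.6% of all, and the promoter of Pld4 held none of the 4 motifs. These counts describe letters within a window and not sites in use.

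At 7 d, all 8 tested genes exceeded the sham-operated level in the stimulated rats, by 1.59- to 3.08-fold. Of the 15800 probe sets tested, 4.02% were higher and 2.46% lower at the same threshold (limma, adjusted p under 0.05), that is 635 and 389, or 502 and 574 with each array centred on its median, where all 8 genes were higher as well. The median log2 change of the 8 genes was 1.38, against 0.0018 over all probe sets. In all 9 measured genes, Lgals3 included, every stimulated rat lay above every sham-operated rat, a separation found in 3.81% of the probe sets tested. Ordered by the size of the rise among 15800 probe sets, Cd68 was at place 6, Pld4 at 7, Cd84 at 12, Gpnmb at 14 and Tyrobp at 15, followed by Trem2 at 37, Ctss at 86 and Ctsd at 137. The genes were chosen with earlier results of these data known. Their excess over all probe sets, here and at the later time, therefore describes them and is not a test of the group.

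**Figure D1:**
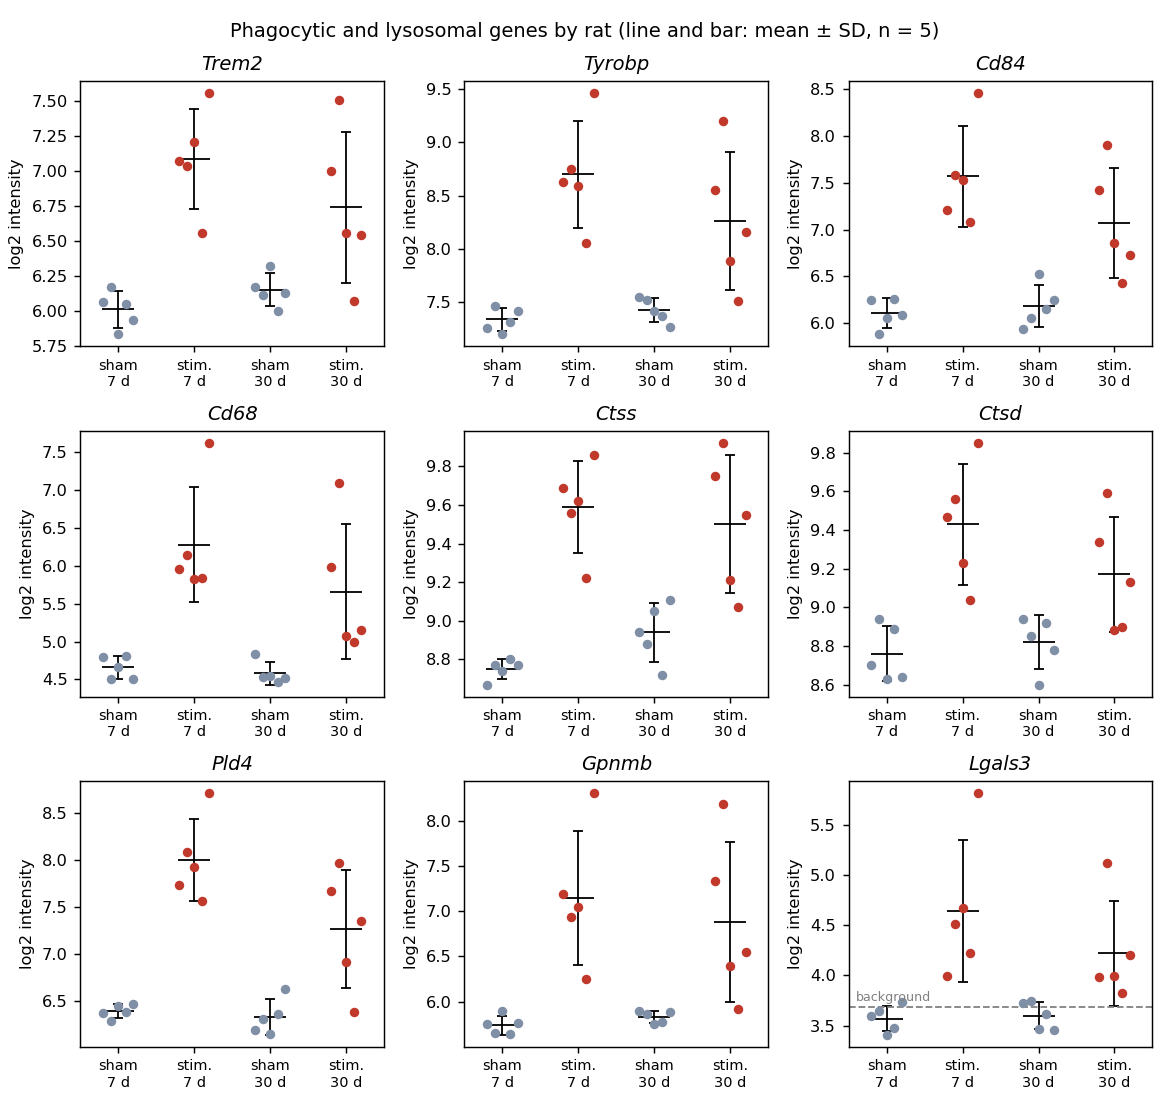
Log2 intensity of each rat (points) for the 9 measured genes in sham-operated (grey) and stimulated (red) rats at 7 d and 30 d, with the mean and SD of the 5 rats of each group. At 7 d the red points lie above all grey points in every panel, while at 30 d they spread further and overlap the sham-operated rats in all panels but Cd68, Gpnmb and Lgals3. The dashed line for Lgals3 is the background of 3.69.

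Trem2, the receptor, measured 6.06, 6.17, 5.83, 6.05 and 5.93 in sham-operated rats 1 to 5 at 7 d and 7.07, 7.04, 7.21, 6.56 and 7.56 in the stimulated rats. It rose 2.11-fold, a log2 change of 1.08 (SE 0.189, n = 5 per group, limma adjusted p = 0.00129). Its adaptor gene Tyrobp measured 7.26, 7.47, 7.20, 7.32 and 7.42 in sham-operated rats and 8.63, 8.75, 8.59, 8.06 and 9.46 in stimulated rats. For both genes, stimulated rat 4 was the lowest and stimulated rat 5 the highest of its group, and even rat 4 lay above all controls. The change of Tyrobp was 2.57-fold (1.36 on the log2 scale, SE 0.232, limma adjusted p = 0.00101). The self-binding receptor Cd84 measured 6.25, 5.88, 6.05, 6.26 and 6.09 in sham-operated rats and 7.21, 7.58, 7.53, 7.08 and 8.46 in stimulated rats, a 2.76-fold rise (1.47, SE 0.235, limma adjusted p = 0.000617).

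Cd68, the glycoprotein of the lysosomal membrane, rose most of the 8. It measured 4.80, 4.51, 4.67, 4.81 and 4.50 in sham-operated rats and 5.96, 6.14, 5.83, 5.84 and 7.62 in stimulated rats at 7 d, so that stimulated rats 1 to 4 lay close together and rat 5 stood apart from them. The fitted rise was 3.08-fold (1.62, SE 0.33, limma adjusted p = 0.0038), and without rat 5 it was 1.29 and still passed. Pld4, the endolysosomal nuclease, rose by nearly the same amount with less spread. It measured 6.37, 6.28, 6.44, 6.38 and 6.47 in sham-operated rats and 7.73, 8.08, 7.92, 7.56 and 8.71 in stimulated rats, a 3.06-fold rise (1.61, SE 0.221), and it had the smallest adjusted p of the 8 (0.000145, limma).

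The cathepsins moved less. Ctss measured 8.67, 8.77, 8.74, 8.80 and 8.77 in sham-operated rats and 9.69, 9.56, 9.62, 9.22 and 9.86 in stimulated rats at 7 d, and the 5 controls lay closer together than for any other of the 9 genes (SD 0.0506). Ctsd measured 8.70, 8.94, 8.63, 8.89 and 8.64 in sham-operated rats and 9.47, 9.56, 9.23, 9.04 and 9.85 in stimulated rats, the smallest rise of the 8 at 1.59-fold (0.67, SE 0.135, limma adjusted p = 0.0035). Stimulated rat 4 again came closest to the controls in both genes.

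Gpnmb measured 5.75, 5.65, 5.90, 5.64 and 5.76 in sham-operated rats and 7.19, 6.94, 7.04, 6.25 and 8.30 in stimulated rats at 7 d, a 2.65-fold rise (1.41, SE 0.321, limma adjusted p = 0.00899). Lgals3 measured 3.60, 3.65, 3.41, 3.48 and 3.73 in sham-operated rats, of which 1 lay above the background of 3.69, and 3.99, 4.51, 4.67, 4.22 and 5.81 in stimulated rats, all of which lay above it. The group means of Lgals3 were 3.57 ± 0.128 and 4.64 ± 0.703 (SD, n = 5). Because the controls were near background, the difference of 1.07 carries no fold, and it was not tested beside the other genes.

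At 30 d the stimulated rats were still higher on average in all 8 tested genes, by 1.28- to 2.11-fold, but 2 of the 8 passed the threshold (limma), namely Ctss and Pld4. Higher probe sets made up 0.835% of all tested at this time and lower ones 0.899%, and 47% of all probe sets were higher by any amount. All 8 had an unadjusted p under 0.05 (limma), against 11.4% of all probe sets in either direction. These p-values assume the same spread within a gene in all 4 groups. At 30 d the spread was larger in stimulated rats, for example an SD of 0.897 against 0.148 for Cd68, so they may be too small. The median change of the 8 genes was 0.86, against -0.0064 over all probe sets. All 5 stimulated rats lay above all 5 sham-operated rats in 3 of the 9 measured genes, Cd68, Gpnmb and Lgals3, against 1.84% of the probe sets tested.

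Ctss measured 8.94, 8.88, 9.05, 8.72 and 9.11 in sham-operated rats 1 to 5 at 30 d and 9.75, 9.92, 9.21, 9.07 and 9.55 in stimulated rats, so that stimulated rat 4 lay among the upper controls. Its rise was 1.48-fold (0.56, limma adjusted p = 0.0288). Pld4 measured 6.19, 6.31, 6.14, 6.36 and 6.63 in sham-operated rats and 7.67, 7.97, 6.91, 6.38 and 7.35 in stimulated rats, a 1.91-fold rise (0.93, limma adjusted p = 0.0331). For both genes, 4 stimulated rats lay above all 5 controls. Neither call held throughout: without stimulated rat 1, 2 or 5 at 30 d, or without sham-operated rat 1, 2 or 4 at 30 d, none of the 8 passed, and without sham-operated rat 3 at 30 d only Ctss did.

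Cd68 measured 4.84, 4.53, 4.55, 4.47 and 4.52 in sham-operated rats and 5.99, 7.10, 5.07, 5.0 and 5.15 in stimulated rats at 30 d. The groups did not overlap, yet stimulated rats 3, 4 and 5 lay close together just above the controls and rats 1 and 2 were far higher, and the change of 1.08 had a limma adjusted p of 0.114. Gpnmb showed the same spread, with 5.90, 5.86, 5.75, 5.78 and 5.88 in sham-operated rats and 7.33, 8.18, 6.39, 5.92 and 6.55 in stimulated rats (change 1.04, limma adjusted p = 0.118). Lgals3 measured 3.72, 3.74, 3.47, 3.62 and 3.46 in sham-operated rats, 2 of them above background, and 3.98, 5.12, 3.99, 3.82 and 4.20 in stimulated rats. Stimulated rat 2 was the highest for all 3 genes.

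Trem2 measured 6.17, 6.11, 6.32, 6.0 and 6.13 in sham-operated rats at 30 d and 7.00, 7.51, 6.56, 6.07 and 6.54 in stimulated rats (change 0.59, limma adjusted p = 0.139). Tyrobp measured 7.55, 7.52, 7.42, 7.37 and 7.27 in sham-operated rats and 8.55, 9.20, 7.89, 7.51 and 8.16 in stimulated rats (0.83, limma adjusted p = 0.0741). In both genes, stimulated rat 4 lay within the range of the controls and the other 4 stimulated rats lay above it. Cd84 measured 5.94, 6.05, 6.53, 6.15 and 6.25 in sham-operated rats and 7.42, 7.91, 6.86, 6.43 and 6.73 in stimulated rats (0.89, limma adjusted p = 0.0568). Ctsd measured 8.94, 8.85, 8.60, 8.92 and 8.78 in sham-operated rats and 9.34, 9.59, 8.88, 8.90 and 9.13 in stimulated rats, and here 2 stimulated rats, 3 and 4, lay within the range of the controls (0.35, limma adjusted p = 0.258).

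Whether the rise lasted from 7 d to 30 d was tested by the difference between the 2 changes. The change was smaller at 30 d for all 8 genes, at 52.7% (Ctsd) to 74.1% (Gpnmb) of the change at 7 d on the log2 scale, with a median of 60.9%. No difference between the changes passed the threshold, either for the 8 genes or for any probe set (0% of 15800, limma), and 4.32% of all probe sets had an unadjusted p under 0.05. Among the 8, Pld4 was below that level (difference -0.68, 95% interval -1.33 to -0.03, limma unadjusted p = 0.0405). The intervals of the other 7 included 0, for example -0.54 for Cd68 (95% interval -1.51 to 0.43) and -0.28 for Ctss (-0.66 to 0.11). A smaller change at 30 d was also the rule among the probe sets picked by their rise at 7 d, since 94.3% of the 635 that were higher at 7 d had a smaller change at 30 d, and 16.5% of them were also higher at 30 d.

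**Figure D2:**
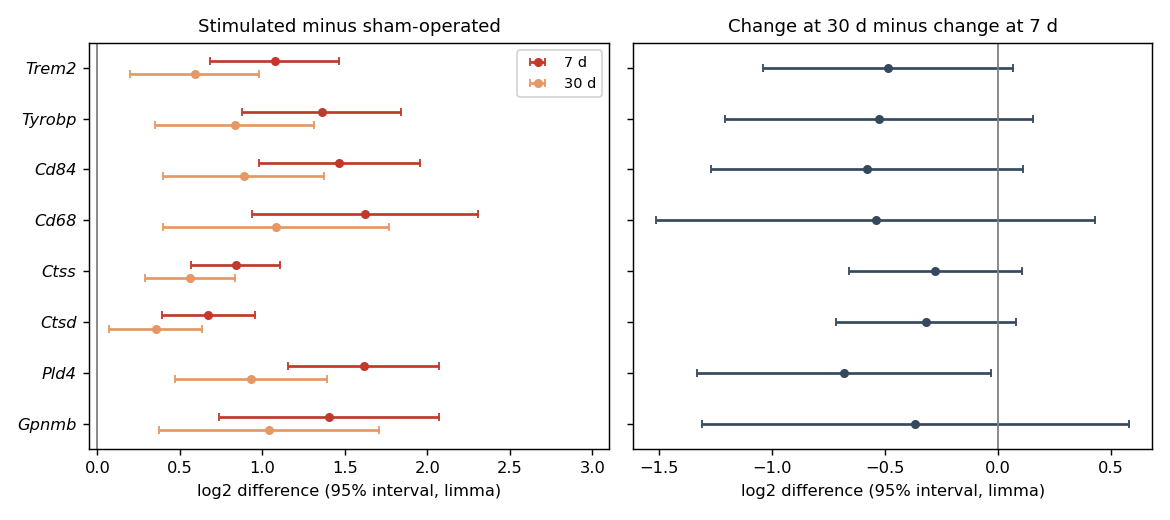
Left, the log2 difference between stimulated and sham-operated rats at 7 d (red) and 30 d (orange) for the 8 tested genes, with 95% limma intervals that are not adjusted for the number of genes. The intervals assume the same spread in every group. Right, the change at 30 d minus the change at 7 d with its interval. All intervals on the left lie above 0, and on the right that of Pld4 lies below 0 while the other 7 include it.

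The order of the group means was the same at its upper end for all 8 genes, with stimulated rats at 7 d highest, stimulated rats at 30 d next and both sham-operated groups below. Stimulated rats at 30 d were lower than stimulated rats at 7 d past the threshold in 1 of the 8, Pld4 (-0.74, limma adjusted p = 0.0316), while 5.87% of all probe sets were lower in this comparison. That background moved with the arrays and the scaling: 928 probe sets were lower and 1210 higher, against 36 and 36 without the 3 arrays of highest Wfs1 and 549 and 1528 with each array centred on its median. The call of Pld4 ended without stimulated rat 2 or 5 at 7 d or without stimulated rat 3 or 4 at 30 d, whereas without stimulated rat 2 at 30 d 5 of the 8 passed. Rat 2 was the highest stimulated rat at 30 d in 9 of 9 genes, so leaving it out lowers that group. With each rat left out, 381 to 1367 of all probe sets were lower. Sham-operated rats at 30 d and 7 d differed in none of the 8 (unadjusted p at least 0.164, limma), with 0% of all probe sets past the adjusted threshold and 13.3% at an unadjusted p under 0.05. With array weights, 902 probe sets were higher and 492 lower in this comparison, and still none of the 8. The largest difference between the sham groups was in Ctss, whose means were 8.75 at 7 d and 8.94 at 30 d.

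The stimulated rats differed far more among themselves than the controls did. Over the 9 genes, the SD within a sham-operated group ranged from 0.0506 to 0.159 at 7 d and from 0.0672 to 0.224 at 30 d, against 0.237 to 0.761 and 0.3 to 0.897 in stimulated rats. The same animals were high or low across the genes. Stimulated rat 5 was the highest of its group at 7 d in 9 of 9 genes and rat 4 the lowest in 7 of 9, and at 30 d rat 2 was the highest in 9 of 9 and rat 4 the lowest in 8 of 9.

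Averaged over the 8 tested genes relative to the time-matched sham-operated mean, stimulated rats 1 to 5 at 7 d stood at 1.15, 1.24, 1.15, 0.73 and 2.01, and those at 30 d at 1.10, 1.64, 0.44, 0.13 and 0.61. All 10 sham-operated rats lay between -0.06 and 0.05. At 30 d, then, 2 rats were as high as the typical rat at 7 d, 2 were intermediate, and rat 4 was close to the controls. Rat 4 and rat 5 at 30 d, 2 of these 3 lower rats, were also 2 of the 3 arrays with the highest Wfs1, and the third lower rat, rat 3, had a Wfs1 level of 7.30. The next highest Wfs1 level, 8.14, was in stimulated rat 5 at 7 d, whose mean of 2.01 was the highest of all rats. Without the 3 arrays of highest Wfs1, 6 of the 8 genes passed the threshold at 30 d (Gpnmb, Ctss, Cd84, Pld4, Trem2 and Tyrobp, limma), the changes of all 8 lay between 0.46 and 1.47, and all 8 still passed at 7 d. This removes 2 of the 3 lower stimulated rats, which by itself raises the stimulated mean, and 1 sham-operated rat at 30 d. Over all probe sets, 132 were higher at 30 d in the main setting and fewer without these 3 arrays. The other settings, this one included, ranged from 68 to 370. The part of neighbouring CA1 tissue in the result at 30 d was not tested further.

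**Figure D3:**
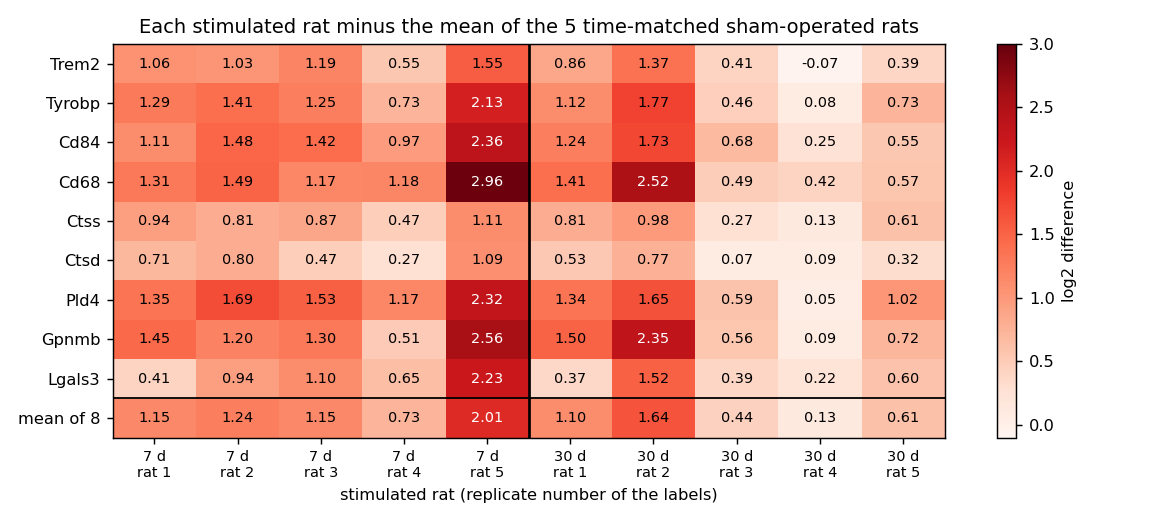
Log2 difference of each stimulated rat from the mean of the 5 time-matched sham-operated rats, with genes in rows and rats in columns, and the mean of the 8 tested genes in the bottom row. Rat 5 at 7 d (mean 2.01) and rat 2 at 30 d (mean 1.64) are the darkest columns, and rat 4 at 30 d (mean 0.13) is the palest.

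The 8 genes followed each other closely over the arrays. After the group means were subtracted, the correlation of each gene with the mean of the other 7 lay between 0.83 (Ctsd) and 0.97 (Gpnmb and Tyrobp) over the 20 arrays, which describes variation between rats within groups that share the array and the dissection. Outside the list, the genes whose variation was most like that of the mean of the 8 were Tgfb1 (r = 0.98), a cytokine made by microglia, Laptm5 (0.97), a lysosomal membrane protein of blood-lineage cells, Gpr183 (0.97), a receptor for oxysterols, Nckap1l (0.96), a subunit of the actin-regulating WAVE complex, Il18 (0.96), a cytokine, Glipr2 (0.95), Dock2 (0.95), an activator of Rac, and Npc2 (0.95), a lysosomal cholesterol carrier. All 8 of these genes were higher at 7 d, by 0.54 (Il18, limma adjusted p = 0.0345) to 1.76 (Glipr2, limma adjusted p = 0.000217), against 4.02% of all probe sets. The stimulated rats varied far more than the controls and weigh most in these correlations. A rise at 7 d is therefore not independent of how the genes were picked. At 30 d, Gpr183, Nckap1l, Glipr2 and Npc2 passed the threshold as well, against 0.835% of all probe sets.

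Of 26 other lysosomal enzymes tested, 6 were higher at 7 d and 1 at 30 d, with a median change of 0.15 at 7 d, against 4.02% and 0.835% of all probe sets. The smallest p at 7 d belonged to the nuclease Dnase2 (0.69, limma adjusted p = 0.00601), the protease legumain (Lgmn, 0.58), the mannosidase Man2b1 (0.32) and the cathepsin Ctsh (0.53). Ctsc, a peptidase that activates serine proteases, and the galactosidase Glb1 were also higher (0.82 and 0.34), and the 1 enzyme called at 30 d was Ids (0.19, limma adjusted p = 0.0381), which degrades glycosaminoglycans. Of 26 lysosomal membrane, pump and activator genes, 9 were higher at 7 d and 1 at 30 d. Among them were the progranulin gene Grn (0.83), Npc2 (1.13), the peptide transporter Slc15a3 (1.01), the nucleoside transporter Slc29a3 (0.48) and Laptm5 (1.11), while the subunits of the proton pump changed by -0.10 to 0.11 and none was called. None of 8 regulators of lysosomal genes was called at either time, and a count of 0 in a list of this size is near the share of all probe sets. Tfeb, the best known of these regulators, had a change of 0.02 at 7 d (limma adjusted p = 0.896). Of 5 cystatins, which inhibit cathepsins, Cstb was higher at 7 d (0.34) and Cst7 had a change of 0.08.

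Around TREM2 and DAP12, 8 of 16 signalling partners were higher at 7 d and 0 at 30 d. Over all probe sets, 4.02% were higher and 2.46% lower at 7 d, and 0.835% were higher at 30 d. A count of 0 at 30 d in a list of this size is near that share. They were the phosphatases Ptpn6 (0.90) and Inpp5d (0.72), the adaptor Blnk (0.75), the exchange factor Vav1 (0.51), the kinase Syk (0.33), the adaptor Hcst (0.31), the receptor Siglec5 (0.28) and the phospholipase Plcg2 (0.22). Trem1, a relative found mainly on neutrophils and monocytes, had a change of -0.04. Of 23 phagocytic receptors and bridging proteins, 6 were higher and 1 lower at 7 d. Itgam and Itgb2, which form complement receptor CR3, had changes of 1.35 and 1.26, the lipid transporter Abca1 had one of 0.61, and Itgam, which also stands in the list of homeostatic microglial genes, was higher at 30 d as well (1.03, limma adjusted p = 0.0357). Mfge8, a bridge to dying cells that astrocytes also make, fell by 0.47 at 7 d (limma adjusted p = 0.00785). Of 20 genes of the phagocytic cup and the NADPH oxidase, 8 were higher at 7 d and 0 at 30 d, with Rac2 (0.99), Arpc1b (0.71), Dock2 (0.66) and Rab32 (0.31) among them.

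The closer relatives and partners of the listed genes can be read against the same shares of all probe sets, 4.02% higher at 7 d and 0.835% at 30 d. Of 7 other genes of the SLAM family and its adaptors, Slamf8 alone was higher (0.34 at 7 d). None of 5 other phospholipase D genes was called, a count near those shares. The galectin list held 9 other genes, among them Lgals3bp, which encodes a protein that binds galectin-3 and is not itself a galectin. Lgals1 and Lgals3bp were higher at 7 d, and Lgals1 was higher at 30 d as well (0.35 and 0.40). Of 5 genes listed beside Gpnmb, its binding partner Cd44 was higher at both times (0.69 and 0.57, limma adjusted p = 0.00106 and 0.0134).

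Lists of other microglial genes had smaller median changes than the 8 genes, which were chosen with earlier results of these data known. Of 17 homeostatic microglial genes, 13 were higher at 7 d and 4 at 30 d, against 4.02% and 0.835% of all probe sets. The mean of this list in stimulated rats 1 to 5 stood at 0.67, 0.79, 0.72, 0.49 and 1.24 at 7 d and at 0.63, 0.90, 0.33, 0.14 and 0.40 at 30 d. The 8 genes exceeded it by 0.24 to 0.77 at 7 d, and by 0.47, 0.74, 0.11, -0.01 and 0.21 at 30 d, so the gap was wide in the rats with high values and absent in rat 4 at 30 d. These gaps compare log2 differences from different probe sets and were not tested. Of 14 other genes of damage-associated microglia, 4 were higher and 1 lower at 7 d, against 4.02% and 2.46% of all probe sets. The growth factor Igf1 (1.01), the tetraspanins Cd9 (0.59) and Cd63 (0.43) and Lgals3bp (0.50) were the higher and the lipase Lpl was the lower (-0.57, limma adjusted p = 0.0422), while Apoe (0.12), Itgax (0.11) and Cst7 (0.08) were not called. Clec7a, which did not pass the filter, had group means of 3.60 and 4.29 at 7 d and of 3.57 and 4.41 at 30 d.

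**Figure D4:**
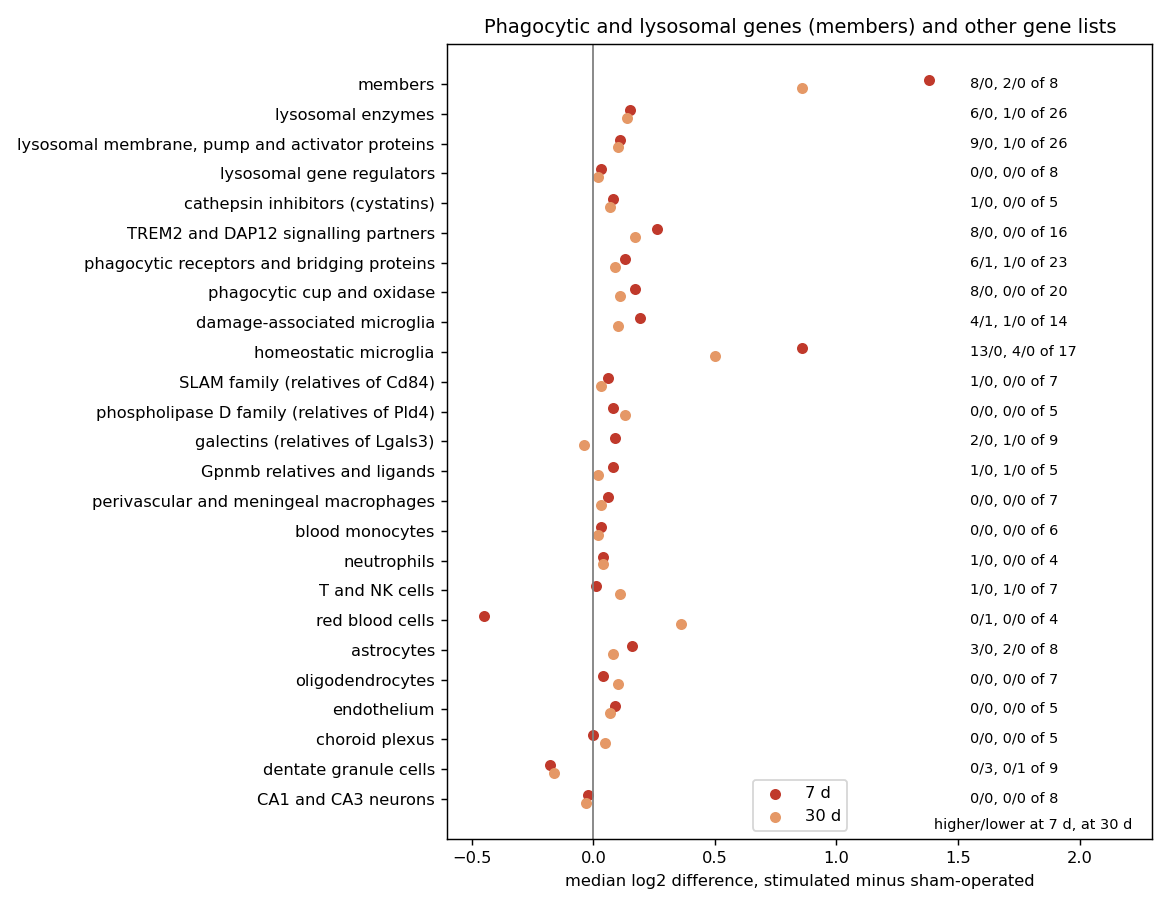
Median log2 difference between stimulated and sham-operated rats over the tested genes of each list at 7 d (red) and 30 d (orange), with the number of genes higher and lower past the threshold at 7 d and at 30 d written at the right. The 8 genes of the top row have medians of 1.38 and 0.86, the homeostatic microglial genes follow with 0.86 and 0.50, and the 3 lists of other lysosomal genes lie between 0.02 and 0.15.

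Markers of the other cells that could carry these transcripts were set beside them by their levels. None of 7 genes of perivascular and meningeal macrophages and none of 6 genes of blood monocytes was called at either time. Counts of 0 in lists of this size are near the shares of all probe sets. The mean of the macrophage list ranged from 0 to 0.12 in stimulated rats at 7 d and from -0.07 to 0.08 at 30 d. Mrc1, Cd163 and Lyve1, which define perivascular macrophages, had group means between 4.27 and 5.52. The monocyte receptor Ccr2 lay between 3.55 and 4.12 on all arrays, near background. Of the neutrophil list, Csf3r was higher at 7 d (0.64), which microglia express as well, while S100a9, Mpo and Elane, above background on all 20 arrays, had group means of 3.82 to 3.88, 4.26 to 4.28 and 4.21 to 4.29, and S100a8 was at or below background on all of them. Of the T and NK cell list, Cd4 was higher at both times (0.97 and 1.05), which rat microglia also express, and none of the other 6 genes tested was called at either time. Cd3d, Cd3e, Cd8a, Lck and Gzmb were above background on all 20 arrays and Cd3g on none. Cd3e had group means of 3.89 and 4.11 in the sham-operated and the stimulated group at 30 d, and its highest array was at 5.22. The part of perivascular macrophages, monocytes, T cells and neutrophils in the results was not tested. Among astrocyte genes, 3 of 8 were higher at 7 d and 2 at 30 d, with Gfap the largest (1.13 and 0.93). Of 9 granule cell genes, 3 were lower at 7 d and 1 at 30 d. Over all probe sets, 4.02% were higher and 2.46% lower at 7 d, and 0.835% and 0.899% at 30 d. Hbb of red blood cells was lower at 7 d (-0.70, limma adjusted p = 0.0356), and at 30 d its change was in the other direction and was not called (0.53, limma adjusted p = 0.244). The mean of the red blood cell list ranged from -0.71 to -0.08 in stimulated rats at 7 d and from 0.07 to 0.61 at 30 d. The part of astrocytes, of granule cells and of blood in the results was not tested.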

How the data were processed

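RNA of the left dentate gyrus of each of 20 rats had been hybridised to an Affymetrix Rat Gene 1.1 ST array. The deposited values are log2 intensities, which the authors computed by RMA (background correction, quantile normalization and probe set summary) with oligo 1.22.0, per the labels. Quantile normalization makes the arrays alike in distribution, so each change is relative to the rest of the RNA.

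Of 29214 probe sets, 18644 were annotated to 1 gene, 962 to several and 9608 to none, and 99.0% of the first were matched to RefSeq (GRCr8). As in the study's methods, values were floored at background and probe sets at or below it on more than 5 arrays were removed. Background was set at 3.69, the 20th percentile over all arrays, in place of the antigenomic probes, which were not identified in the files. The 15800 remaining probe sets (14586 genes) were tested with limma 3.58.1 in R 4.3.3, in a single model of the 4 groups with Benjamini-Hochberg adjustment at a threshold of 0.05. The procedure was also run on simulated data with the same spread in every group, which cannot show how it behaves with unequal spread. Intervals are at 95% and unadjusted. Like the p-values, they assume the same spread within a gene in every group.

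The genes and all lists were chosen with earlier results of these data known. Of the other lists, genes named are taken from the 4 with the smallest p at each time, together with genes of the SLAM, phospholipase D, galectin, cystatin and TREM2 partner lists, defining markers and the 8 genes most like the mean of the tested genes. Ctsc, Glb1, Laptm5, Lpl, Apoe, Itgax, Clec7a, Tfeb and the proton pump genes were named after their values were seen. The replicate numbers were not used to pair rats: the deviations of same-numbered rats from their group means correlated at -0.489 to 0.241. Other settings tried were no filter, a stricter filter, no floor, the 30th percentile as background, further quantile normalization or median centring, trend and robust moderation, no moderation, array weights, only the groups compared, the mean of a gene's probe sets, the replicate block and each rat left out.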

Additional observations from a re-analysis of the deposited data

Results flagged for a closer look

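In Cd68, stimulated rat 5 at 7 d measured 7.62 on the log2 scale, against a next highest value of 6.14, and sham-operated rat 1 at 30 d measured 4.84, against a next highest of 4.55. Both were outliers among the 5 rats of the group by Dixon's criterion. They were the 2 found among 36 groups of 5 rats (9 genes in 4 groups), a number that chance alone can give at this criterion. Stimulated rat 5 was the highest of its group in all 9 genes.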

How the results depend on the processing

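All 8 genes were higher at 7 d in every setting tried. The count of 2 genes higher at 30 d became 0 with no filter on low values, 0 with no moderation of the variance, 0 with only the groups compared, 1 with trend and robust moderation and 7 with array weights, and the cause was not tested. It was 6 without the 3 arrays of highest Wfs1, a setting chosen after seeing the data. With each rat left out in turn it ranged from 0 to 6, with 4 without stimulated rat 4 at 7 d and 6 without stimulated rat 5 at 7 d or stimulated rat 4 at 30 d. With the replicate block, which pairs rats that share only a number, it was 3, and 2 of 20 arrays correlated best with their own number. The 1 gene lower in stimulated rats at 30 d than at 7 d, Pld4, became 0 with no filter, no moderation, only the groups compared or the Wfs1 arrays left out, and 0 to 5 with each rat left out. Without the Wfs1 arrays, the difference between the changes of Gpnmb became 0.07, and stimulated rats at 30 d minus 7 d became 0.16 for Gpnmb and 0.04 for Ctss. With each rat left out, this last comparison ranged from -0.59 to 0.02 for Gpnmb (highest without stimulated rat 5 at 7 d) and from -0.19 to 0.02 for Ctss (highest without stimulated rat 4 at 30 d). Sham-operated rats at 30 d minus 7 d became -0.06 for Cd84 with array weights, and with each rat left out ranged from -0.01 (without sham-operated rat 3 at 30 d) to 0.14. With no filter, Lgals3 had a change of 0.95 at 7 d (limma adjusted p = 0.0597) and 0.52 at 30 d (limma adjusted p = 0.565). Over all probe sets, the 635 higher at 7 d ranged from 483 to 698 over the other settings and from 443 to 733 with each rat left out, and the 389 lower from 263 to 574 and from 242 to 524. The 132 higher at 30 d ranged from 68 to 370 and from 63 to 219, and the 142 lower from 69 to 394 and from 69 to 186. The 68 was found with no moderation and the 370 with array weights, where 0 and 7 of the 8 genes passed. The count of 132 also fell with no filter. It changed less with trend and robust moderation, with only the groups compared and without the Wfs1 arrays. The number of the 8 genes passing at 30 d thus moved with all probe sets in some settings and not in others. For stimulated rats at 30 d against 7 d, the 1210 higher ranged from 36 to 1673 and from 495 to 1701, and the 928 lower from 36 to 1496 and from 381 to 1367. For the sham-operated rats, the count of 0 reached 902 higher and 492 lower with array weights, and 1 higher and 0 lower with a rat left out. With 5 rats per group and near-background controls for Lgals3, precision is limited by the number of rats and by signal.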
